A study of Mus musculus with 9 samples.

Results

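The effect of deleting the growth cone protein GAP-43 on transcripts was examined in layer IV of the mouse barrel cortex by comparing Gap43 knockout (KO) with wild-type (WT) mice across genes and functional classes. The comparison used the 3 arrays titled KO and the 3 titled WT, 6 of the 9 arrays of the series, and every one of the 22626 probe sets that is not an array control. The remaining 3 arrays came from heterozygotes (HZ). In the comparison they entered only the choice of the probe sets kept for testing and the estimate of the spread. All mice were C57BL/6 at postnatal day 5 and differed by their Gap43 genotype. Layer IV was cut out of the barrel cortex by laser microdissection, and the amplified RNA of 1 mouse went onto each Affymetrix array, so that n = 3 mice per genotype throughout. The labels name neither the deleted stretch of Gap43 nor a promoter or cell type that would limit the deletion.

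GAP-43 is anchored to the inner face of the growth cone membrane, where it binds calmodulin, is phosphorylated by protein kinase C and acts on the actin cytoskeleton. In the barrel cortex, axons from the thalamus bring whisker input to layer IV, where they gather into patches surrounded by layer IV neurons. The cell bodies of those axons lie in the thalamus, so that the RNA measured here is that of cells in the cortex: neurons, glia and vessel cells together. In such bulk tissue, fewer cells of a type and less RNA per cell cannot be told apart.

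The values were linear probe set signals as deposited by the authors, with a trimmed mean of 500.2 on every array. Signals below are given in the order of replicates 1 to 3, and a log2 change is the mean log2(signal + 16) of KO minus that of WT, with its standard error (SE). The brightest 60% of probe sets, ranked by their mean log2 signal across the 9 arrays, were tested, 13576 in number, and each of the 8503 genes they name (of 12393 with a probe set) was read by its brightest probe set. Across these probe sets the WT arrays correlated with each other at r = 0.958 to 0.978, the KO arrays at 0.961 to 0.970, and WT with KO arrays at 0.949 to 0.971. The labels do not give the sex of the mice; read from Xist and Y-linked transcripts, each genotype had 2 females and 1 male, WT 3 and KO 1 here. The 3'/5' log2 ratio of the control transcripts, which rises when RNA is shortened, was 3.33 to 3.96 in WT and 3.49 to 3.85 in KO. In HZ it was 3.31 to 4.72, with HZ 2 the highest of all arrays.

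The layer IV marker Rorb was among the kept genes. Of the striatal, thalamic, hippocampal and choroid plexus markers 28 had a probe set, and 17 of them were kept; the defining markers Ttr, Tcf7l2 and Prox1 were among the 11 too dim to test. Of those 17, 9 were below 0 (median log2 change -0.15, -0.34 over the 11 left by the stricter filter of the brightest 40%, -0.01 with array weights and 0.01 without KO 3). Rora, which layer IV and thalamic neurons both express, and Igfbp2 were lower without overlap, 2 of 17 (11.8%, against 6.21% of all kept genes), and 0 were higher; they are named because the count is small. The summed signal of these markers was 8810 to 10775 in WT and 7115 to 9096 in KO, and their part in the results below was not tested. Of 37 vessel markers 28 were kept, though not Pecam1, and of 11 blood markers 2 were kept, with Hba-a1 and Alas2 too dim. The microglial markers Cx3cr1, C1qa and Aif1 were also too dim. Genes of layers V and VI were kept too, and some differed widely between animals of the same genotype, as described with the layer markers.

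Gap43 itself was the only transcript to pass, 1 of 13576 probe sets (0.00737%; 0.0118% of genes) at a limma adjusted p under 0.05. Its signal was 7089, 4746 and 4294 in WT and 979, 1930.2 and 1299 in KO. Every KO array was well below every WT array, and the KO mean was 26.1% of the WT mean. The log2 change was -1.95 ± 0.23 (limma adjusted p = 0.0173), the largest in size of all kept genes except Lynx1. Whether the probe set lies inside the deleted stretch is not given in the labels, so the remaining signal does not check how complete the knockout is. The call ended without WT 1, WT 2, HZ 2 or KO 3 and in a fit of the WT and KO arrays alone, with values in the closing section. An exact permutation test gave p = 0.1 (2-sided), the smallest that 3 arrays against 3 can give. Of the 30 genes nearest to Gap43 on chromosome 16, 15 on each side, 21 lay above 0 and 9 below, with a median log2 change of 0.06.

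No other gene passed, so that the differences below are given by their size and direction. KO and WT arrays did not overlap for 663 genes that were higher in KO (7.8%) and 528 that were lower (6.21%), or 14% in either direction. An unadjusted p under 0.05 was reached by 375 genes on the higher side (4.41%) and 318 on the lower (3.74%), or 8.15% in all. The median log2 change of kept genes was 0.02, with quartiles of -0.14 and 0.18 and a median SE of 0.19, so that a typical difference was no larger than its error. Differences past 1.5-fold were found for 140 genes higher (1.65%) and 154 lower (1.81%), and past 2-fold for 11 higher (0.129%) and 21 lower (0.247%). In signs, 53.6% of genes were above 0 and 46.4% below. Setting all arrays to 1 median instead of the authors' scaling moved the median over all kept probe sets from 0.02 to -0.03. It turned the split of probe sets at an unadjusted p under 0.05 from 602 higher (4.43%) and 488 lower (3.59%) to 367 and 747. Under it 44.0% of kept probe sets were above 0. This setting lowers every log2 change by the same amount. A list median that turns below 0 under it has therefore not moved against all genes. Small list-wide shifts below are read against the values of all genes.

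**Figure D1:**
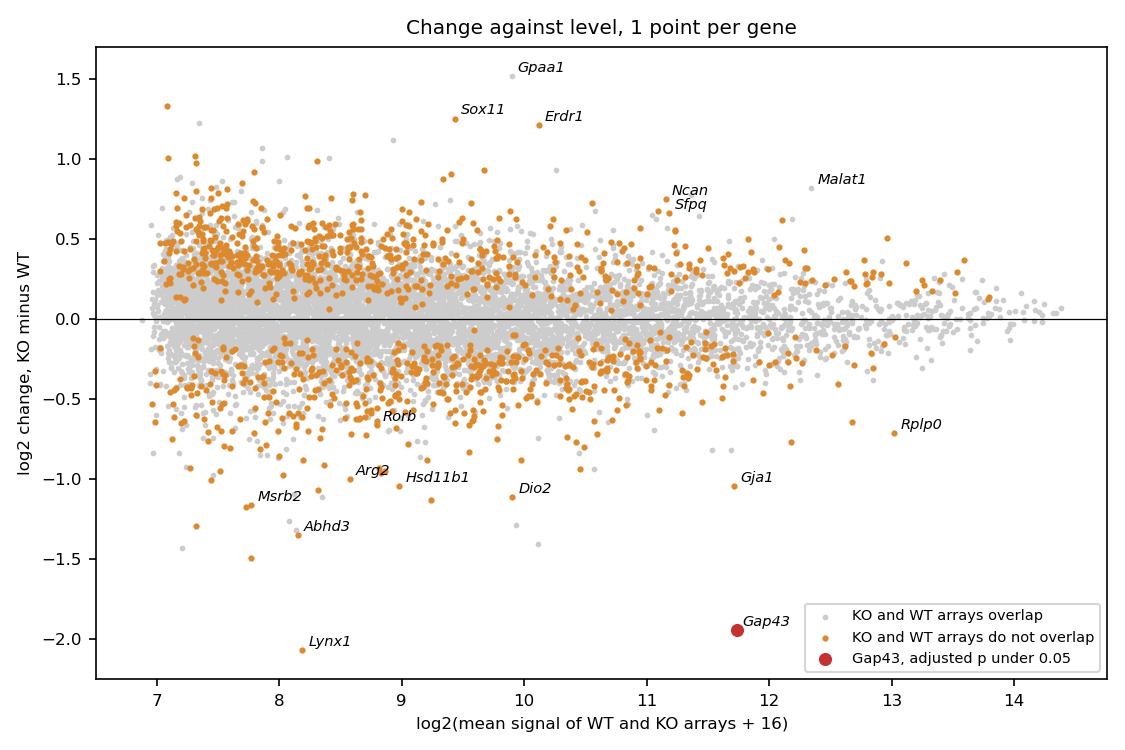
Log2 change of KO against WT (vertical axis) against the log2 mean signal of the WT and KO arrays (horizontal axis), 1 point per kept gene; orange points are genes whose KO and WT arrays do not overlap, and the red point is Gap43 at -1.95, the only gene past the adjusted threshold. Lynx1 at -2.07 and Gpaa1 at 1.52 are the extremes, and the quartiles of all kept genes are -0.14 and 0.18.

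Several of the 15 leading transcripts with lower means in KO are astrocyte genes. Gja1, which encodes connexin 43, the gap junction protein that couples astrocytes, had the smallest p of any gene after Gap43. It read 3819, 4592 and 5081 in WT and 2298, 2527 and 1731 in KO. The groups were far apart, with a log2 change of -1.04 ± 0.16 (limma adjusted p = 0.114) and 5 of its 5 kept probe sets lower. Dio2, the deiodinase with which astrocytes convert thyroid hormone to its active form, read 1288, 1036 and 1577 in WT and 592, 588 and 573 in KO, and its KO arrays were almost identical (-1.11 ± 0.23). S100b, a calcium-binding protein of astrocytes, read 176, 277 and 223 in WT and 128, 96.9 and 99 in KO, again with no overlap (-0.95 ± 0.21). The orphan receptor Gpr37l1 of glia (-0.92 ± 0.19) and the tight junction family member Cldn10 (-0.79 ± 0.17) were also lower on every KO array.

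The other leading transcripts with lower means belonged to enzymes, transcription factors and neuronal membrane proteins. Arg2, the mitochondrial arginase, read 454, 509.5 and 515 in WT and 212, 271 and 234 in KO. Its groups did not overlap, and both of its kept probe sets were lower (limma adjusted p = 0.114). Hsd11b1, which regenerates active glucocorticoid inside cells, read 607, 719 and 671 in WT and 312, 327 and 300.4 in KO, with all KO arrays at about the same level (-1.05 ± 0.20). Msrb2, a mitochondrial methionine sulfoxide reductase, read 263, 282 and 301 in WT and 80.4, 112 and 175 in KO (-1.16 ± 0.24), and Sirt3, a mitochondrial deacetylase, read 1443, 1792 and 1623 in WT and 841, 951 and 1104 in KO (-0.74 ± 0.17). Both are mitochondrial proteins and both were separated between genotypes. The hydrolase Abhd3 (-1.35 ± 0.24), the kinase Dapk2 (-1.07 ± 0.24), the transporter-like Mfsd4a (-0.95 ± 0.22) and the clock-linked transcription factor Hlf (-0.75 ± 0.17) were lower on every KO array. Lynx1, a brake on nicotinic acetylcholine receptors, had the largest log2 change of any gene (-2.07 ± 0.45), reading 359, 508 and 464 in WT and 40.6, 90.1 and 195 in KO. Its KO arrays differed among themselves by more than 4-fold, and its SE was the largest among the genes of this paragraph.

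On the higher side Erdr1 and Sox11 had the largest differences of the leading genes. Erdr1 read 650.0, 827 and 501 in WT and 1538, 1761 and 1299.6 in KO, with every KO array above every WT array (1.22 ± 0.20, limma adjusted p = 0.114). Sox11 encodes an SRY-box factor active in young neurons and read 446, 259.8 and 433 in WT and 1523, 626 and 769.7 in KO; KO 1 was far above the other KO arrays, and none overlapped WT (1.25 ± 0.30). Ctnnd2, the neuronal delta-catenin, read 1701, 2194 and 1921 in WT and 2979, 2829 and 2743 in KO (0.56 ± 0.14). Its KO arrays lay close together and above WT. Sfpq, a splicing factor of nuclear paraspeckles that is needed for long neuronal transcripts, read 1905, 1402 and 2047 in WT and 3318, 2582 and 2557 in KO, with 5 of its 5 probe sets higher (0.66 ± 0.17). Ncan, the brain proteoglycan neurocan, read 1334, 1557 and 2189 in WT and 3390.1, 2740.5 and 2367 in KO and did not overlap between genotypes (0.75 ± 0.20), while its other probe set was lower. The scaffold protein Mpp3 (0.72 ± 0.18), the receptor phosphatase Ptpru (0.74 ± 0.18), the secreted Wnt modulator Sfrp2 (0.85 ± 0.21), the chromatin proteins Brd8 (0.87 ± 0.22, with its other kept probe set lower) and Supt20 (0.73 ± 0.19), and Glo1, which detoxifies methylglyoxal (0.68 ± 0.18), were higher on every KO array. So were Prr3 (0.78 ± 0.19), the potassium channel subunit Kcnmb1 (0.70 ± 0.19), Upk2 (0.69 ± 0.19) and the chemokine Ccl8 (0.56 ± 0.15). Adjusted p over these 30 genes ran from 0.114 to 0.460 in limma. All 30 had the same sign between the females and between the males, which their lack of overlap fixed in advance. The largest log2 change above 0 belonged to Gpaa1, of the GPI anchor transamidase (1.52 ± 0.48). It read 223, 1352 and 252 in WT, 1434, 1425 and 1456 in HZ and 1250.2, 1106 and 1444 in KO. WT 2 lay within the KO range, WT 1 and WT 3 were the low arrays of the series, and 1 of its 3 probe sets was lower. Gpaa1 passed when WT 2 was left out (2.33, limma adjusted p = 0.000149), a run that removes the WT array within the KO range.

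**Figure D2:**
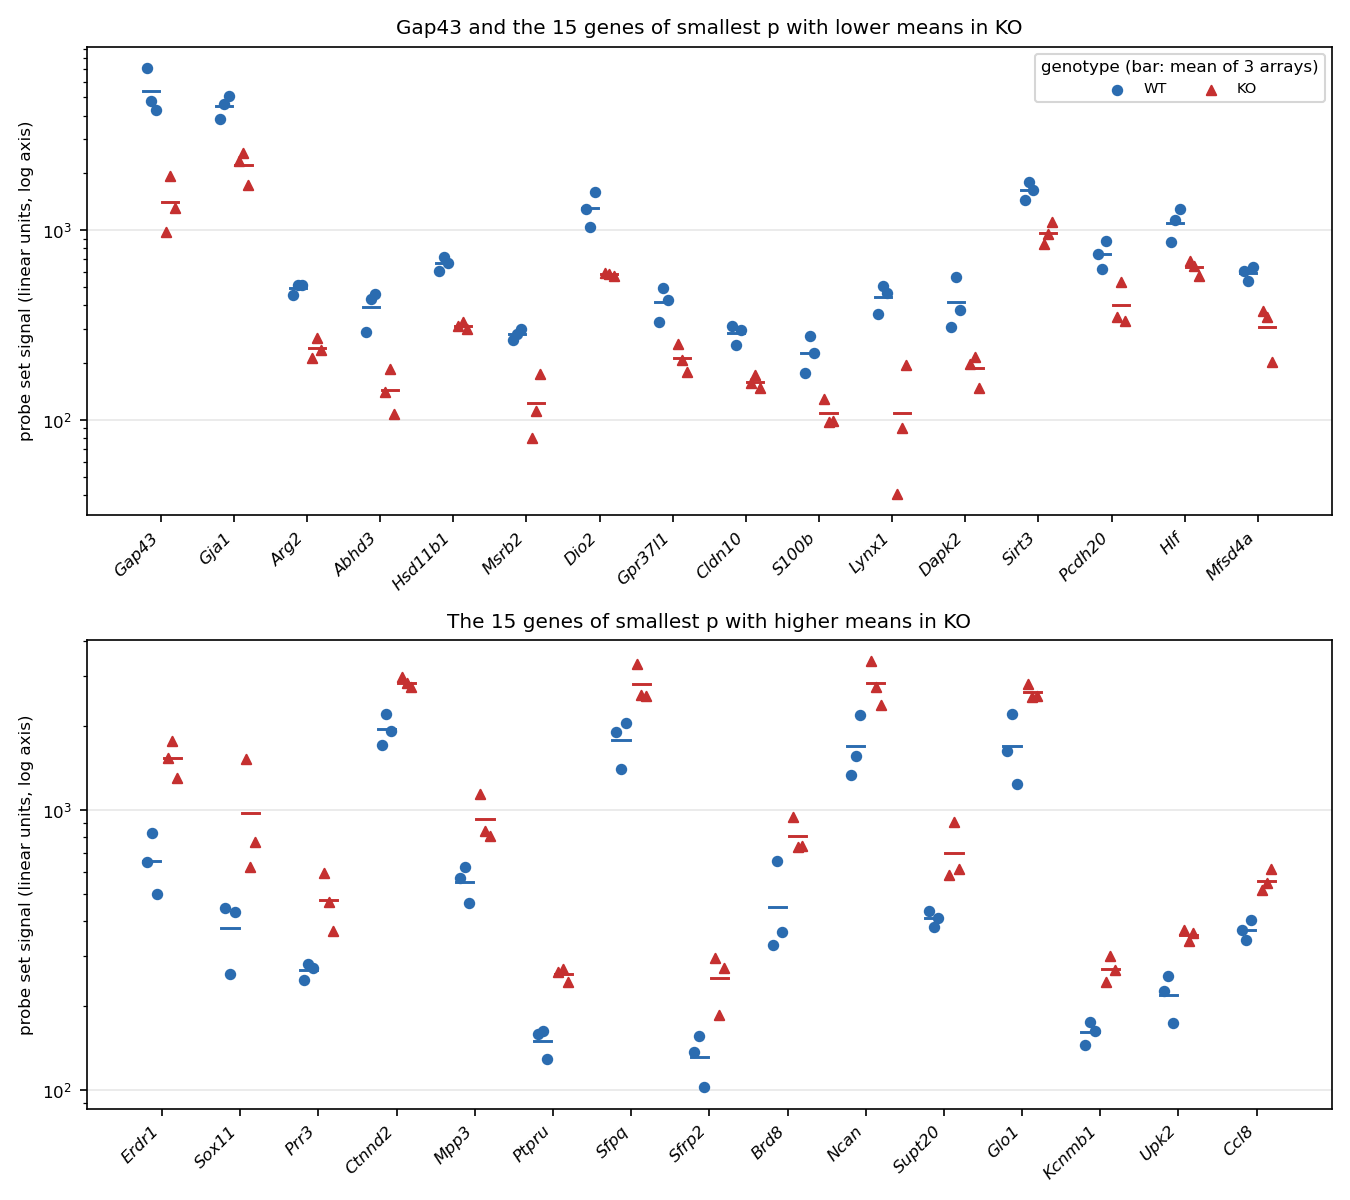
Probe set signal (linear units on a log axis) on each WT array (blue circles) and KO array (red triangles), with bars at the means of 3 arrays, for Gap43 and the 15 lower genes with the smallest p (top) and the 15 higher ones (bottom). In none of the genes shown does a KO array reach the WT range, and the KO points of Dio2 (573 to 592) lie close together.

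The promoters of Gja1 and Dio2, the leading astrocyte genes, and of Ndufs3, the leading gene of respiratory complex I, are shown because a searched motif was found in each. Those of Uqcr10 and Atp5g1, searched for the motifs used for Ndufs3, held no match and are not shown. Each line gives the 250 bases before the start of the gene from the RefSeq promoter table (GRCm38.p6), read along the gene's strand, and capitals mark a motif found on either strand. The search covered TGANTCA (AP-1 factors) and TGACGTCA (the cyclic AMP response element) in the astrocyte genes, and CCGGAAG (ETS factors) and the NRF1 motif in Ndufs3.
Gja1 (chr10:56377050-56377299, plus strand): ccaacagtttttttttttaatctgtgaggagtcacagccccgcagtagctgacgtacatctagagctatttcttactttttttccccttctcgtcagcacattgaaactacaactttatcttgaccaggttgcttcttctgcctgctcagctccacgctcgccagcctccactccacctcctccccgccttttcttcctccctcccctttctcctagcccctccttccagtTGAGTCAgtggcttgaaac
Dio2 (chr12:90739039-90739288, minus strand): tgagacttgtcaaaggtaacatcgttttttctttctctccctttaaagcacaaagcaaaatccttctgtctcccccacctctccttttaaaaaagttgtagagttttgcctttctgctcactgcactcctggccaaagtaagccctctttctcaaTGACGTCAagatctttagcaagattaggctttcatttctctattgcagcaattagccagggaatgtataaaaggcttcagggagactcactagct
Ndufs3 (chr2:90904722-90904971, minus strand): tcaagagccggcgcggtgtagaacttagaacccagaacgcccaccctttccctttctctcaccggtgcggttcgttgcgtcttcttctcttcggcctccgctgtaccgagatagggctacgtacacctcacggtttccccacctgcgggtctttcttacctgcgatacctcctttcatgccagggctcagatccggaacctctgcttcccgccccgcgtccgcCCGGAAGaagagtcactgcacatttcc
In Gja1 the capitals mark TGANTCA, which 5.66% of the 6886 kept genes with an entry hold in this window and 3 of 29 astrocyte genes (10.3%). In Dio2 they mark TGACGTCA, held by 2.9% of kept genes and 3.45% of astrocyte genes. In Ndufs3 they mark CCGGAAG, held by 15.7% of kept genes, by 3 of 30 complex I genes and by 15 of 61 mitochondrial ribosomal protein genes (24.6%). The NRF1 motif was held by 12.4% of kept genes and 16.7% of complex I genes, with no match in Ndufs3. No motifs overlapped in these windows. A match describes the letters only.

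Astrocyte markers as a class lay below WT. Of 42 listed markers 34 were kept, and 28 of these (82.4%, against 46.4% of all kept genes) were below 0 with a median log2 change of -0.28, against 0.02 over all genes. The groups did not overlap for 12 on the lower side (35.3%, against 6.21%) and 2 on the higher. At an unadjusted p under 0.05 there were 12 lower (against 3.74% of all genes) and 2 higher, and the 12 became 7 without KO 1 or without KO 3 and 8 without WT 3. Besides Gja1, Dio2 and S100b, these included Aldoc, the aldolase of astrocytes (-0.70 ± 0.21), Slc1a3, the glutamate transporter GLAST (1251, 1614 and 1359 in WT and 1049, 1216 and 961 in KO; -0.38 ± 0.15), Kcnj10, the potassium channel Kir4.1 (-0.63 ± 0.20), and Sparcl1, a secreted synaptogenic protein (-0.46 ± 0.16). Not every marker had a lower mean. Gfap (0.11 ± 0.24) and the water channel Aqp4 (-0.03 ± 0.22) did not differ beyond their errors, and Aqp4 read 1311, 1394 and 1625 in WT and 1216, 2163 and 1052 in KO, with KO 2 the highest of all. Id3 (0.69 ± 0.20) and the radial glia filament Nes (0.40 ± 0.17), which belong to immature cells as well, were higher on every KO array. The summed signal of the markers was 52327 to 63844 on the WT arrays and 43327 to 53738 on the KO arrays, so that the totals overlapped slightly. Over the markers, each array's median deviation from the WT mean ran from -0.15 to 0.10 in WT and from -0.46 to -0.18 in KO, with KO 3 the lowest.

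Vessel and microglial markers also had lower medians, whereas the oligodendrocyte lineage did not. Of 28 kept endothelial, mural and meningeal markers 21 were below 0 (median log2 change -0.14), but without KO 2 the median was -0.02. Without overlap 5 were lower (17.9%, against 6.21% of all genes) and 0 higher. The glucose transporter Slc2a1 of vessels (-0.57 ± 0.21) and the endothelial phosphatase Ptprb (-0.81 ± 0.27) were lower without overlap, whereas Cldn5 (-0.29 ± 0.23) and Flt1 (-0.02 ± 0.27) overlapped. Only 11 of 29 microglial and macrophage markers were kept. The lysosomal protease Ctss was lower on every KO array (353, 495 and 253 in WT and 157, 229.5 and 175 in KO; -0.88 ± 0.25), but the complement gene C1qb read 208, 813 and 217 in WT and 181, 322 and 207 in KO and was high on WT 2 alone (a gene named after its values were seen). The median of the microglial markers, -0.23 with all arrays, was 0.00 without WT 2. In the oligodendrocyte lineage 8 of 16 kept markers were below 0, and the groups overlapped for all 16. At an unadjusted p under 0.05 there were 3 lower (18.8%, against 3.74% of all genes) and 0 higher. Without KO 1 there were 0 lower and 1 higher. Sirt2 had the lowest log2 change (-1.26). Olig1 was lower (-0.50 ± 0.20) with overlap, while Pdgfra (0.11 ± 0.34) and Mbp (0.08 ± 0.16) were near 0. The part of these cell types in the other differences was not tested.

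Transcripts of the mitochondrial respiratory chain were lower by small amounts across nearly all members. In complex I, the NADH dehydrogenase that starts the chain, 33 of 37 listed subunits were kept and 32 of them were below 0 (97.0%), with a median log2 change of -0.18. Complexes II and III had 11 of 13 below 0 (median -0.18), cytochrome c and complex IV had 10 of 13 (median -0.07), and ATP synthase had 15 of 18 (median -0.13). On the lower side KO and WT arrays did not overlap for 7 complex I subunits (21.2%), 5 of complexes II and III (38.5%), 6 of ATP synthase (33.3%) and 0 of complex IV, against 6.21% of all kept genes. On the higher side this held for 0 in each list, against 7.8%.

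Within the chain the core subunit Ndufs3 stood lowest in complex I, reading 2862, 3145 and 2909 in WT and 1609, 2112 and 2239 in KO (-0.59 ± 0.17). Its groups were separate. Ndufa7 was lower on all 5 of its probe sets (1538, 1516 and 1424 in WT and 1056, 1195 and 1037 in KO; -0.44 ± 0.16). In complex II the membrane anchor Sdhd was lower without overlap (-0.44 ± 0.19), whereas the flavoprotein Sdha overlapped (-0.14 ± 0.15). The complex III subunit Uqcr10 read 1387, 2483 and 1321 in WT and 1200.2, 891 and 841 in KO (-0.77 ± 0.26), with WT 2 far above the other WT arrays. Atp5g1, which encodes a proton-carrying ring subunit of ATP synthase, read 2184, 2536 and 2172 in WT and 1726, 1767 and 1761 in KO, with the KO arrays almost equal (-0.38 ± 0.13). Of the catalytic subunits, Atp5b was lower on every KO array (-0.22 ± 0.11) and Atp5a1 was even (-0.00 ± 0.12), as was cytochrome c itself, Cycs (0.00 ± 0.11). These medians moved without WT 2, when they were -0.13 for complex I (25 of 33 below 0), -0.14 for complexes II and III, 0.03 for complex IV and -0.04 for ATP synthase, and without KO 2 complexes II and III stood at -0.08.

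The machinery that translates the mitochondrial genome showed the same direction. Of 70 kept mitochondrial ribosomal proteins, out of 75 listed, 60 were below 0 (85.7%; median log2 change -0.16), and the groups did not overlap for 17 on the lower side (24.3%, against 6.21% of all genes) and 2 on the higher (2.86%, against 7.8%). At an unadjusted p under 0.05 were 8, all lower (11.4%, against 3.74%), a count that was 3 without KO 1 and 5 without WT 1 or KO 2. Mrps11 read 348, 285 and 372 in WT and 228, 161 and 258 in KO (-0.61 ± 0.20) and Mrps18a read 781, 699.7 and 635 in WT and 411, 451 and 599.9 in KO (-0.53 ± 0.17), and in each the groups were separate. Mrpl35 (-0.49 ± 0.18), Mrpl43 (-0.39 ± 0.14) and Mrps12 (-0.38 ± 0.16) followed, while Mrps2 (0.32 ± 0.19, with overlap) and Mrps35 (0.22 ± 0.18, without) had higher means. Without WT 2 the median was -0.10 with 51 of 70 below 0. By contrast with the mitochondrial ribosome, cytosolic ribosomal proteins had 30 of 44 kept members below 0 and a median of only -0.06, which turned to 0.02 without WT 2, to 0.00 without KO 1 and above 0 with array weights. Rplp0, a stalk protein of the large ribosomal subunit, stood apart from that list on its 1 probe set, reading 9813, 11043 and 10013 in WT and 5452, 6181 and 7292 in KO (-0.71 ± 0.18).

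Other parts of energy metabolism were mixed. In the citric acid cycle 16 of 24 members were below 0 (median log2 change -0.13, and -0.04 without KO 1), with Cs (0.04 ± 0.12) and Mdh2 (-0.03 ± 0.11) near 0. Glycolysis had 13 of 20 below 0 (median -0.06, and -0.02 without WT 2). Ldhb, the lactate dehydrogenase subunit that favours pyruvate, read 3844, 4217 and 2959 in WT and 2537, 2554 and 2637 in KO and was lower on all 4 of its probe sets (-0.49 ± 0.14), whereas the phosphofructokinase Pfkp was higher on every KO array (0.57 ± 0.24). Metallothioneins and antioxidant enzymes had 19 of 27 below 0 (median -0.12, and -0.06 without WT 2). Both methionine sulfoxide reductases Msrb2 (-1.16 ± 0.24) and Msra (-0.57 ± 0.18) were lower without overlap, Glrx was lower with overlap (-1.10 ± 0.36), and the thioredoxin reductase Txnrd2 was higher (121, 46.3 and 64.8 in WT and 141, 154 and 196 in KO; 1.01 ± 0.29). The proteasome had 29 of 39 subunits below 0 (median -0.12, and -0.06 without KO 2), led by Psmb7 (-0.58 ± 0.25) and Psme4 (-0.32 ± 0.14). Cholesterol synthesis showed no lean, with 14 of 27 above 0 and a median of 0.02 that turned to -0.03 with arrays set to 1 median and without WT 2, and its enzyme Hmgcs1 was even (0.07 ± 0.11). Among chaperones 25 of 44 were below 0, with a median of -0.02 that turned above 0 without WT 1 or KO 2, and the small heat shock protein Cryab stood apart, reading 770.4, 1086 and 567 in WT and 209, 366 and 538 in KO (-1.14 ± 0.29).

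RNA processing genes leaned the other way. Of 66 kept splicing factors and nuclear RNA-binding proteins, out of 76 listed, 53 were above 0 (80.3%, against 53.6% of all genes), with a median log2 change of 0.17. The groups did not overlap for 16 on the higher side (24.2%, against 7.8%) and for 0 on the lower. At an unadjusted p under 0.05 were 8, all higher (12.1%, against 4.41%); leaving out 1 array gave between 5 (without KO 1) and 13 (without HZ 2). Alongside Sfpq, the SR-related protein Srrm1 read 534, 594 and 643 in WT and 1071, 879 and 773 in KO (0.60 ± 0.17). Its groups were separate on these arrays. The splicing factors Srsf9 (0.63 ± 0.20) and Luc7l3 (0.43 ± 0.13) were also higher on every KO array, though the other kept probe set of Luc7l3 went the other way. The neuronal splicing regulators Nova1 (0.20 ± 0.16) and Ptbp2 (0.17 ± 0.13) had smaller differences, with Nova1 above WT on every KO array. On the lower side Mbnl1 (-0.21 ± 0.14) and Sf3b1 (-0.20 ± 0.17) had the smallest p, and their groups overlapped. The median stayed above 0 with every array left out (0.12 to 0.23) and with arrays set to 1 median (0.11, 49 of 66 above 0).

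Nuclear noncoding RNAs and chromatin regulators also had more members above 0 than below. All 7 kept noncoding RNAs, of 17 listed, were above 0 (median log2 change 0.35, and 0.19 without WT 1). The groups did not overlap for 1 of them, Meg3 (14.3%, against 7.8% of all genes on the higher side). At an unadjusted p under 0.05 were 3, all higher (42.9%, against 4.41%), a count that was 0 without KO 2 and 1 without WT 1 or WT 3. Malat1, which resides in nuclear speckles, read 2850.1, 3081 and 5049.9 in WT and 3627, 8147 and 8286 in KO; KO 1 lay within the WT range and the other KO arrays were above it (0.82 ± 0.33). Snhg1 (0.57 ± 0.24) and Snhg11 (0.59 ± 0.25) were higher with overlap, and Meg3 read 6190.0, 8892 and 8427 in WT and 9337, 11482 and 8921 in KO (0.35 ± 0.18). Of 48 kept chromatin and histone modifiers 35 were above 0 (72.9%; median 0.11, and 0.18 without KO 3), or 30 above and 18 below with arrays set to 1 median. Without overlap 4 were higher (8.33%, near the 7.8% of all genes) and 0 lower. The maintenance methyltransferase Dnmt1 read 546, 799 and 781 in WT and 1498, 917 and 1032 in KO (0.67 ± 0.24) and the histone methyltransferase Kmt2a read 499, 449 and 499 in WT and 631, 649 and 603 in KO (0.37 ± 0.15), each above WT on all arrays. Cell cycle genes were even in sign, with 23 of 42 above 0. Their median of 0.04 turned below 0 with arrays set to 1 median, with quantile normalization and without WT 1. Without overlap 7 were higher (16.7%, against 7.8% of all genes) and 2 lower (4.76%, against 6.21%). At an unadjusted p under 0.05 there was 1 higher (2.38%, against 4.41%) and 0 lower. Mki67 (-0.18 ± 0.24), Top2a (0.30 ± 0.20) and Ccnd1 (-0.02 ± 0.15) did not differ beyond their spread.

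**Figure D3:**
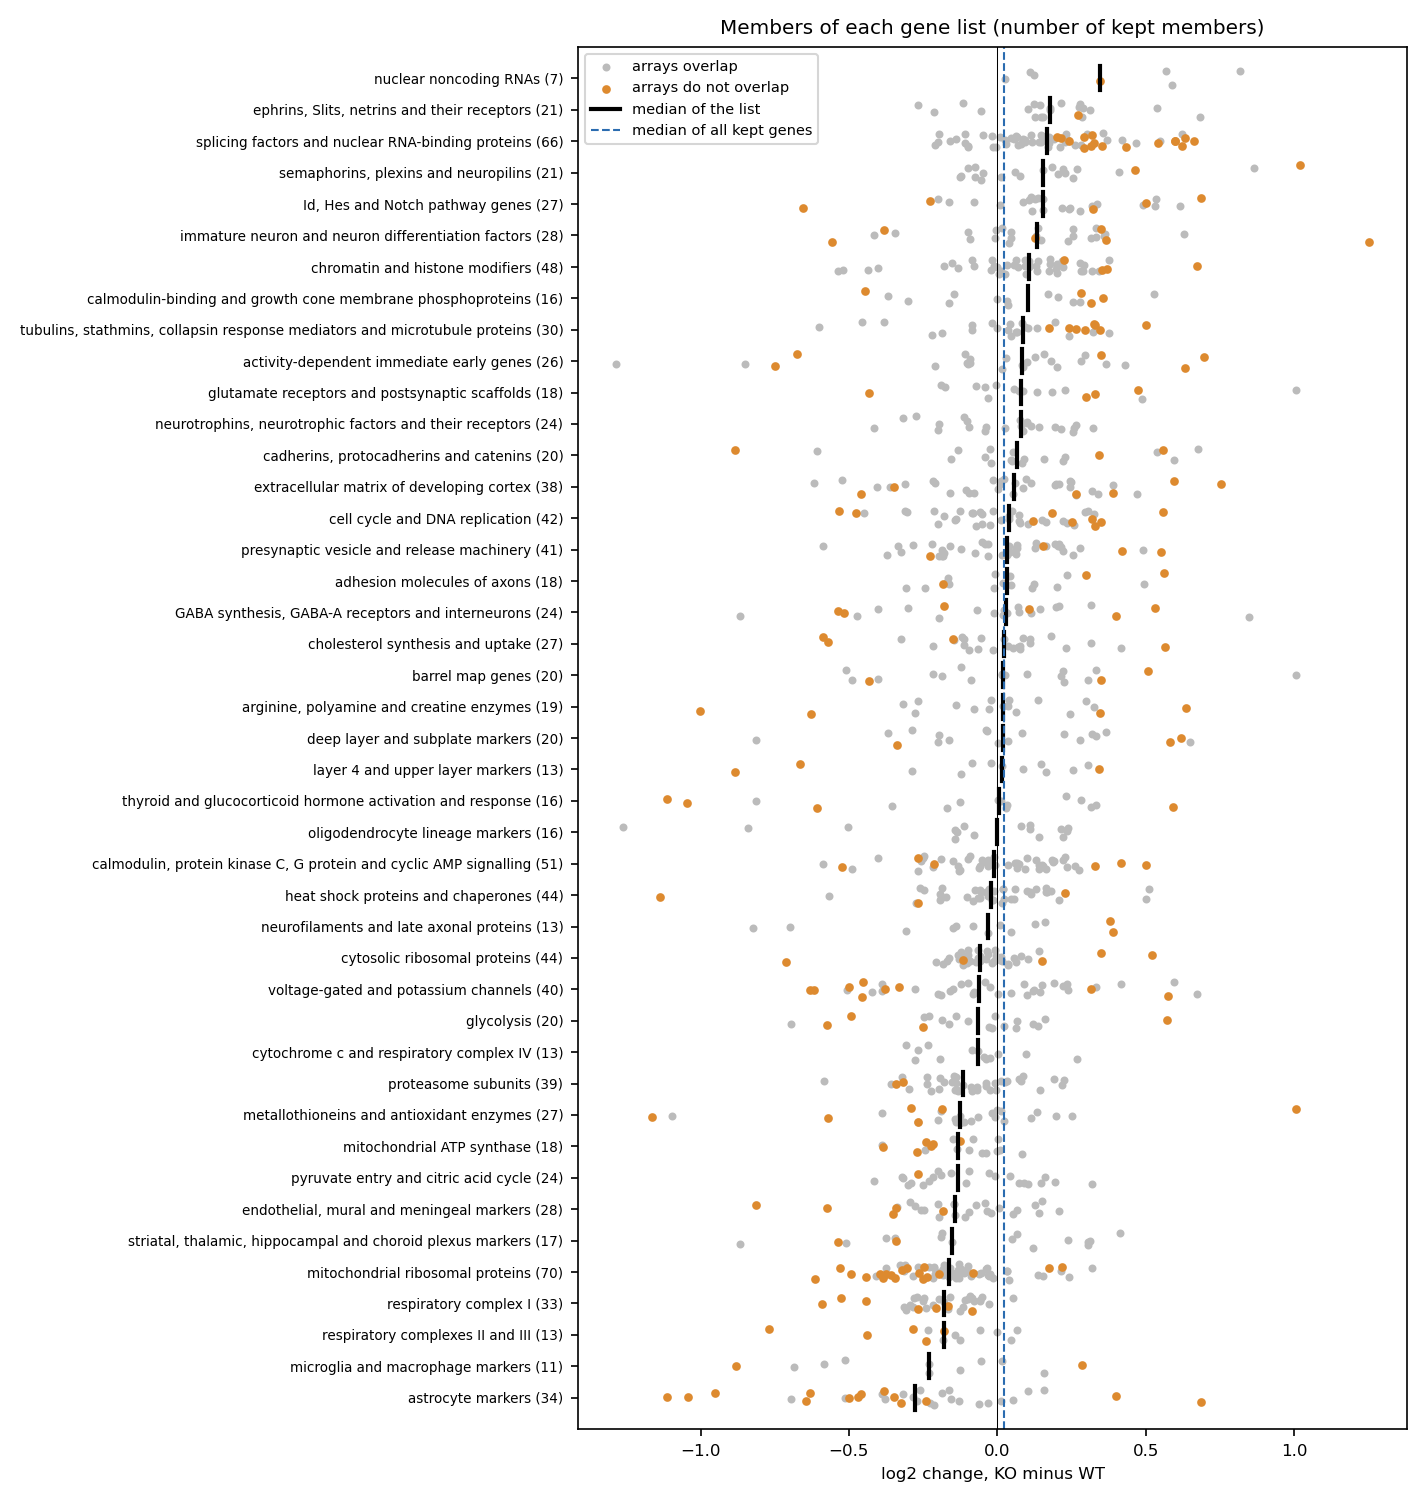
Log2 change of KO against WT (horizontal axis) for every kept member of the 43 gene lists with at least 5 kept members (vertical axis, ordered by the list's median); orange points are genes whose arrays do not overlap, black bars are list medians and the dashed line is the median of all kept genes. Astrocyte markers (median -0.28), microglial markers (-0.23), respiratory complexes II and III (-0.18), complex I (-0.18), mitochondrial ribosomal proteins (-0.16), the markers of other regions (-0.15) and vessel markers (-0.14) stand at the bottom, and nuclear noncoding RNAs (0.35), ephrins, Slits and netrins (0.18) and splicing factors (0.17) at the top.

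Relatives of GAP-43 showed no clear direction as a class. The list of calmodulin-binding and growth cone membrane phosphoproteins does not hold Gap43. Of its 16 members 10 were above 0 (62.5%, against 53.6% of all genes), with a median log2 change of 0.10. With arrays set to 1 median 8 were above 0 and 8 below, where 44.0% of all kept probe sets were above 0. Basp1, the closest functional relative of GAP-43 at the membrane, read 10359, 15150.3 and 12019 in WT and 13618, 14035 and 14098 in KO; WT 2 was above all KO arrays, and the change was 0.17 ± 0.13. Marcks, another substrate of protein kinase C that binds calmodulin, read 6026, 7487 and 7438 in WT and 8653, 8705 and 7999 in KO and was higher on every KO array (0.28 ± 0.12), with 5 of 6 probe sets higher. Nrgn, the calmodulin-binding protein of dendrites, overlapped widely (0.25 ± 0.30), and the calcium sensor Hpca was lower on every KO array (-0.44 ± 0.14). The median of that list was 0.04 without WT 1 and 0.22 without WT 2. Without overlap 3 of its members were higher (18.8%, against 7.8% of all genes) and 1 lower (6.25%, against 6.21%). At an unadjusted p under 0.05 there were also 3 higher (against 4.41% of all genes) and 1 lower. Those 3 became 0 without WT 1, HZ 3 or KO 1.

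Microtubule proteins had 22 of 30 members above 0 (median log2 change 0.09; 0.02 without WT 1, 0.19 without WT 2 and 0.15 without KO 1), and 8 were higher (26.7%, against 7.8% of all genes) and 0 lower without overlap. Dpysl5, of the collapsin response mediators, read 438, 546 and 575 in WT and 777, 749.7 and 687 in KO (0.50 ± 0.17), and the microtubule-associated Map4 was higher on all 3 of its probe sets (0.35 ± 0.13). The migration protein Dcx (0.05 ± 0.10) and Stmn2 (0.00 ± 0.11) were even. Tuba4a, a tubulin of mature neurons, was lower with overlap (-0.38 ± 0.14). Adhesion molecules of axons were even, with 10 of 18 above 0 and a median of 0.03 that turned to -0.02 with arrays set to 1 median and just below 0 without WT 3 or KO 1: L1cam (0.23 ± 0.17), Ncam1 (0.20 ± 0.12) and Cntn1 (-0.17 ± 0.15) all overlapped.

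Guidance molecules had more members above 0 than below. Of 21 kept ephrins, Slits, netrins and receptors, out of 39 listed, 17 were above 0 (median log2 change 0.18), but the groups were separate for 1 alone (4.76%, against 7.8% of all genes). That member was the ephrin receptor Epha5, which read 1221, 1057 and 1272 in WT and 1599, 1323 and 1378 in KO (0.27 ± 0.15). The Slit receptor Robo1 was higher with overlap (332, 218 and 144 in WT and 277, 371 and 460.0 in KO; 0.68 ± 0.27), and Epha4, which sorts thalamic axons in the cortex, was lower with overlap (-0.27 ± 0.19). Efna5, a ligand that positions those axons, was too dim to test. Of 21 kept semaphorins, plexins and neuropilins 14 were above 0 (median 0.15; 0.07 without KO 1 and 0.08 without WT 1). Sema4a read 451, 547 and 424 in WT and 668, 678 and 622 in KO (0.46 ± 0.15) and the plexin Plxnb2 read 114, 72 and 82.3 in WT and 231, 191 and 167 in KO (1.02 ± 0.29). These were the only 2 of that list whose groups did not overlap (9.52%). Sema3a (0.41 ± 0.18) was higher with overlap, and its receptor subunit Nrp1 (0.20 ± 0.24) was not separated. Among cadherins and catenins 13 of 20 were above 0 (median 0.07, and just below 0 without KO 2): N-cadherin, Cdh2, was higher with overlap (0.68 ± 0.24), and Cdh8 (-0.61 ± 0.27) was lower with overlap.

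Immature neuron factors leaned upward, led by Sox11. Of 28 kept members 20 were above 0 (median log2 change 0.13; 0.07 without WT 1), and 4 were higher (14.3%) and 2 lower (7.14%) without overlap, against 7.8% and 6.21% of all genes. The RNA-binding protein Elavl3 was higher on every KO array and on all 3 probe sets (0.37 ± 0.15), and the differentiation factor Neurod6 was higher with overlap (2123, 1338 and 1569 in WT and 1867, 3178 and 2801 in KO; 0.63 ± 0.21). Sox4, the close relative of Sox11, read 2750.3, 883 and 2703 in WT and 2709, 2879.7 and 1803 in KO; WT 2 alone was low and the groups overlapped (0.36 ± 0.34). Neurod1 (-0.34 ± 0.24) and Mef2a (-0.38 ± 0.16) had lower means, though of the 4 kept probe sets of Mef2a 2 were lower. In the Id, Hes and Notch list, which restrains neuronal differentiation, 22 of 27 were above 0 (median 0.15). Id3 read 369, 403 and 347 in WT and 612, 789 and 465 in KO (0.69 ± 0.20). Id1 (0.53 ± 0.23) and Hes5 (0.62 ± 0.25) were higher with overlap, Hes1 (-0.16 ± 0.23) and Notch1 (0.14 ± 0.18) were not, and the Notch modifier Mfng was lower (-0.65 ± 0.24). Without overlap 3 of that list were higher (11.1%, against 7.8% of all genes). At an unadjusted p under 0.05, 6 were higher (22.2%, against 4.41%), a count that was 3 without WT 1, KO 1, KO 2 or KO 3 and 4 without WT 2 or any 1 HZ array.

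The medians of synaptic genes as classes stayed near that of all genes. Glutamate receptors and postsynaptic scaffolds had 11 of 18 kept members above 0 (median log2 change 0.08), out of 47 listed. Without overlap 3 were higher (16.7%, against 7.8% of all genes) and 1 lower (5.56%, against 6.21%). At an unadjusted p under 0.05, 2 were higher (11.1%, against 4.41%) and 0 lower. Those 2 became 1 without WT 3 and 4 without WT 2. The scaffold Dlg4 (PSD-95) read 128, 337 and 187 in WT and 532, 418 and 337 in KO, where WT 2 and KO 3 met at the same level (1.01 ± 0.28). The developmental NMDA receptor subunit Grin2b was lower on every KO array at dim signals (172, 185 and 134 in WT and 123, 116 and 109 in KO; -0.43 ± 0.21), while the AMPA receptor gene Gria2 was even (0.07 ± 0.20). Presynaptic genes had 22 of 41 above 0 and a median of 0.03, which turned to -0.02 with arrays set to 1 median and without WT 1, to -0.05 without WT 3 and to -0.01 without KO 1. Syt1, the calcium sensor of release, was higher (0.55 ± 0.21) on the brighter of its probe sets and not on the other, Rab3c was lower with overlap (-0.59 ± 0.22), and Snap25 (-0.16 ± 0.23) and Syn1 (-0.07 ± 0.18) did not differ beyond their errors.

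Inhibitory neurons and ion channels were mixed as well. Of 24 kept GABA and interneuron genes 14 were above 0, with a median of 0.03 that turned to -0.03 with arrays set to 1 median, to -0.07 without WT 3, to -0.01 without KO 2 and to -0.08 without KO 3. The interneuron peptide Vip read 831, 1221 and 737 in WT and 648, 648 and 595 in KO (-0.52 ± 0.19) and the extrasynaptic GABA-A subunit Gabrd (-0.54 ± 0.24) was lower; Sox6, a factor of interneurons from the medial eminence, was higher (0.53 ± 0.19). Each of these was separate between genotypes. Gad1 (-0.47 ± 0.26) and Sst (-0.20 ± 0.29) overlapped, and Gad2 was slightly higher on every KO array (0.11 ± 0.18). Of 40 kept voltage-gated and potassium channels 22 were below 0 (median -0.06, and 0.04 without WT 2), and 7 were lower (17.5%) and 2 higher without overlap, against 6.21% and 7.8% of all genes. The M-current channel Kcnq5 read 441, 444 and 539 in WT and 302, 275 and 331 in KO (-0.62 ± 0.17) and the leak channel Kcnk1 read 729, 788 and 747 in WT and 550.2, 415 and 646 in KO (-0.50 ± 0.17). The sodium channel Scn2a was higher on every KO array (0.32 ± 0.14).

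Genes tied to the barrel map showed no common direction. Of 20 kept barrel map genes 12 were above 0 (median log2 change 0.02, -0.04 with arrays set to 1 median, -0.05 without KO 1 and -0.02 without KO 2 or WT 2). The serotonin receptor Htr1b, carried by thalamic axons and also made in cortex, read 390.5, 405 and 355 in WT and 596, 569 and 495 in KO and was higher on every KO array (0.51 ± 0.16). Maoa, which degrades serotonin, was even (-0.09 ± 0.15), and the serotonin transporter Slc6a4 was too dim to test. Btbd3, which orients dendrites of layer IV neurons, read 309, 489 and 664 in WT and 212, 383 and 409 in KO and overlapped (-0.51 ± 0.29), as did the signalling enzyme Plcb1 (-0.49 ± 0.27).

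Signalling partners of GAP-43 likewise had no common direction. Among calmodulin, protein kinase C, G protein and cyclic AMP genes 24 of 51 were above 0 (median log2 change -0.01, which turned above 0 without WT 1, WT 2 or KO 1 and with array weights). The G protein Gnao1, which GAP-43 is known to stimulate, read 2858, 2824 and 3829.9 in WT and 4364, 4039 and 4189 in KO and was higher on every KO array (0.42 ± 0.14), and so was the adenylyl cyclase Adcy6 (0.50 ± 0.19). The G protein gamma subunit Gng2 was lower (-0.52 ± 0.23). The calcineurin subunit Ppp3ca (-0.06 ± 0.12) and the kinase Prkcb (-0.22 ± 0.17) did not differ beyond their errors. Neurotrophic factors had 14 of 24 members above 0 (median 0.08, and just below 0 without KO 1), and in none of the 24 were the groups separate, with Bdnf (0.10 ± 0.26) and Ntrk2 (0.03 ± 0.17) even.

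Activity-dependent genes did not share a direction. Of 26 kept, 16 were above 0 (median log2 change 0.08; 0.02 without KO 1 and 0.03 with arrays set to 1 median). Fos (0.03 ± 0.23) and Egr1 (-0.10 ± 0.22) were even, and Arc was too dim to test. Rgs2 read 1791, 881 and 1365 in WT and 326, 460.3 and 933 in KO and Egr4 read 149, 198 and 129 in WT and 123, 66 and 78.2 in KO; both had lower means (-1.29 ± 0.35 and -0.75 ± 0.25), with 1 KO array of Rgs2 above WT 2. Dusp6, a phosphatase that ends ERK signalling, read 242, 158 and 241 in WT and 431, 331 and 299.8 in KO and was higher on every KO array (0.70 ± 0.26).

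Of the 13 kept layer IV and upper layer markers, Rorb and Pcdh20 were lower without overlap (15.4%, against 6.21% of all genes). In the same list 1 was higher without overlap (7.69%, against 7.8%). Among the 20 kept deep layer markers 1 was lower and 2 were higher without overlap, while some spread widely within genotypes. Rorb, the receptor that marks layer IV neurons, read 541, 459.7 and 589 in WT and 325, 356 and 302 in KO and was lower on every KO array (-0.66 ± 0.17). Pcdh20, a protocadherin of layer IV, read 744, 623 and 876 in WT and 346, 528 and 333 in KO and was also separate (-0.89 ± 0.20). Cux1 (-0.29 ± 0.23) and Cux2 (0.09 ± 0.28), which mark layers II to IV, overlapped, and 7 of 13 kept layer IV and upper layer markers were above 0. Their median of 0.01 turned to -0.04 with arrays set to 1 median and without WT 1, to -0.01 with quantile normalization and to -0.08 without KO 1, and stood at 0.16 without KO 3.

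The deep layer transcripts Fezf2, Bcl11b and Pcp4 and the neurofilament Nefl differed among replicates in step. Fezf2, of layer V output neurons, read 706, 539.8 and 92.1 in WT and 133, 534 and 831 in KO; Bcl11b, its partner in those neurons, read 502, 339.9 and 212 in WT and 139, 365 and 644 in KO. WT 3 and KO 1 were the low arrays in both, and these mice are the males. The neurofilament Nefl, which marks large output neurons, read 5769.6, 4229 and 1835 in WT and 680.4, 2515 and 4649 in KO and the calmodulin-binding Pcp4 read 2405, 2322 and 803 in WT and 522, 1498 and 2627 in KO, with WT 3 and KO 1 again low and KO 3 among the high arrays. Over the 20 kept deep layer markers 11 were above 0, with a median log2 change of 0.02 that turned below 0 with arrays set to 1 median, with quantile normalization and without WT 3 or KO 3, and stood at 0.22 without KO 1. By array, their median deviation from the WT mean ran from -0.02 (WT 3) to 0.01 in WT and from -0.29 (KO 1) to 0.30 (KO 3) in KO. By this median WT 3 was level with the other WT arrays, unlike in the genes named above. By the summed signal of the list it was lower, at 15749 against 20101 in WT 1 and 19201 in WT 2. Layer IV markers went the opposite way by array, from -0.20 (KO 3) to 0.22 (KO 1) within KO. Rorb did not follow this order, at 325 in KO 1 and 302 in KO 3. The part of sampling depth in the other results was not tested.

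**Figure D4:**
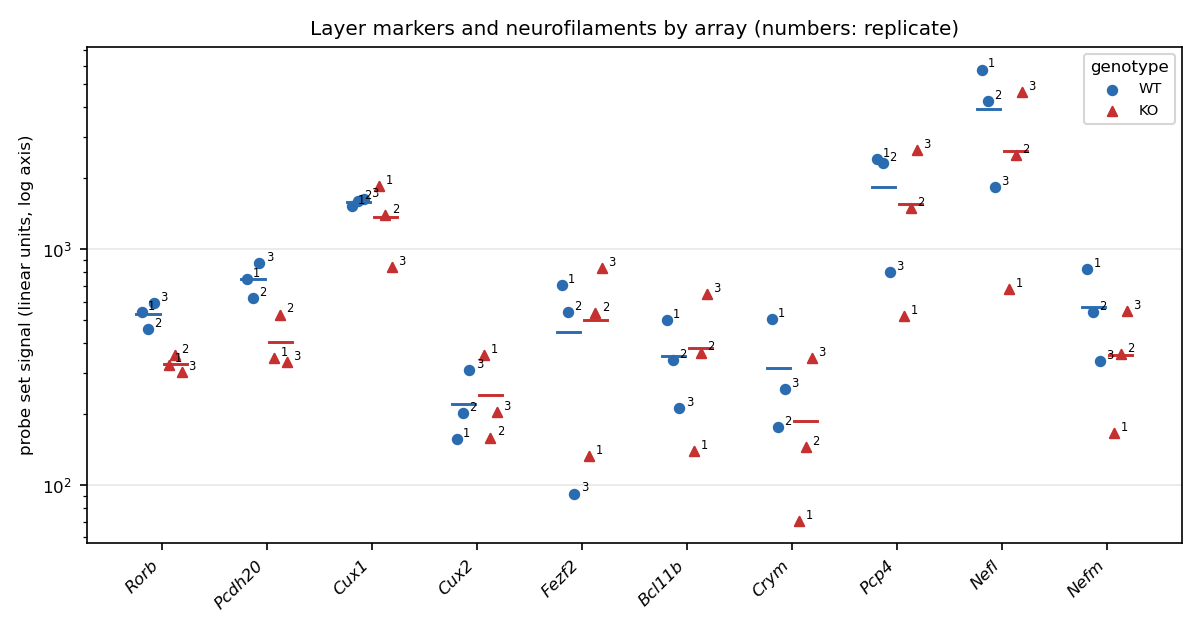
Probe set signal (linear units on a log axis) of layer IV and upper layer markers (Rorb, Pcdh20, Cux1, Cux2), deep layer markers (Fezf2, Bcl11b, Crym, Pcp4) and neurofilaments (Nefl, Nefm) on the WT (blue circles) and KO (red triangles) arrays, numbered by replicate, with bars at the means of 3 arrays. Rorb and Pcdh20 are separate between genotypes, whereas Fezf2 spreads from 92.1 to 706 within WT and from 133 to 831 within KO.

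Enzymes of hormone activation and of arginine use held some of the widest separations although the median log2 changes of their classes were near 0. In the thyroid and glucocorticoid list 3 were lower without overlap (18.8%, against 6.21% of all genes) and 1 higher (6.25%, against 7.8%). By array, the median deviation of that list from the WT mean ran from -0.02 to 0.06 in WT and from -0.13 to -0.05 in KO. In the thyroid and glucocorticoid list 9 of 16 members were above 0 (median log2 change 0.01; -0.05 with arrays set to 1 median, -0.04 with quantile normalization, -0.12 without KO 2 and -0.11 without WT 3). Besides Dio2 and Hsd11b1, the thyroid hormone transporter Slco1c1 read 1044, 660.5 and 1061 in WT and 538, 593 and 629 in KO and was lower on every KO array (-0.61 ± 0.22). The receptors Thra (0.03 ± 0.15) and Nr3c1 (-0.35 ± 0.20) overlapped. Of the response genes, the glucocorticoid-induced Tsc22d3 read 334, 299 and 246 in WT and 535, 393 and 425 in KO and was higher on every KO array (0.59 ± 0.17), with 1 of its 3 probe sets lower, whereas Fkbp5 (0.23 ± 0.17) and the thyroid-responsive Hr (0.32 ± 0.22) overlapped. In the arginine and polyamine list 10 of 19 were above 0, with a median of 0.02 that turned to -0.04 with arrays set to 1 median and to -0.02 without WT 2 or KO 1. Next to Arg2, the spermine oxidase Smox was lower (-0.63 ± 0.22) and Ddah2, which clears a natural inhibitor of nitric oxide synthase, was higher (803, 493 and 764 in WT and 933, 982 and 1271 in KO; 0.63 ± 0.23), while the polyamine enzyme Odc1 was even (0.06 ± 0.19).

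The extracellular matrix held proteins on both sides. Of 38 kept members 24 were above 0 (median log2 change 0.06, and -0.01 without KO 1). Ncan led the higher side. Sparc (-0.35 ± 0.16) and Sparcl1 were lower on every KO array, and Ptprz1, a proteoglycan receptor of glia, was lower with overlap on all 3 of its probe sets (-0.41 ± 0.17). Reelin, Reln, was even (0.02 ± 0.27).

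**Figure D5:**
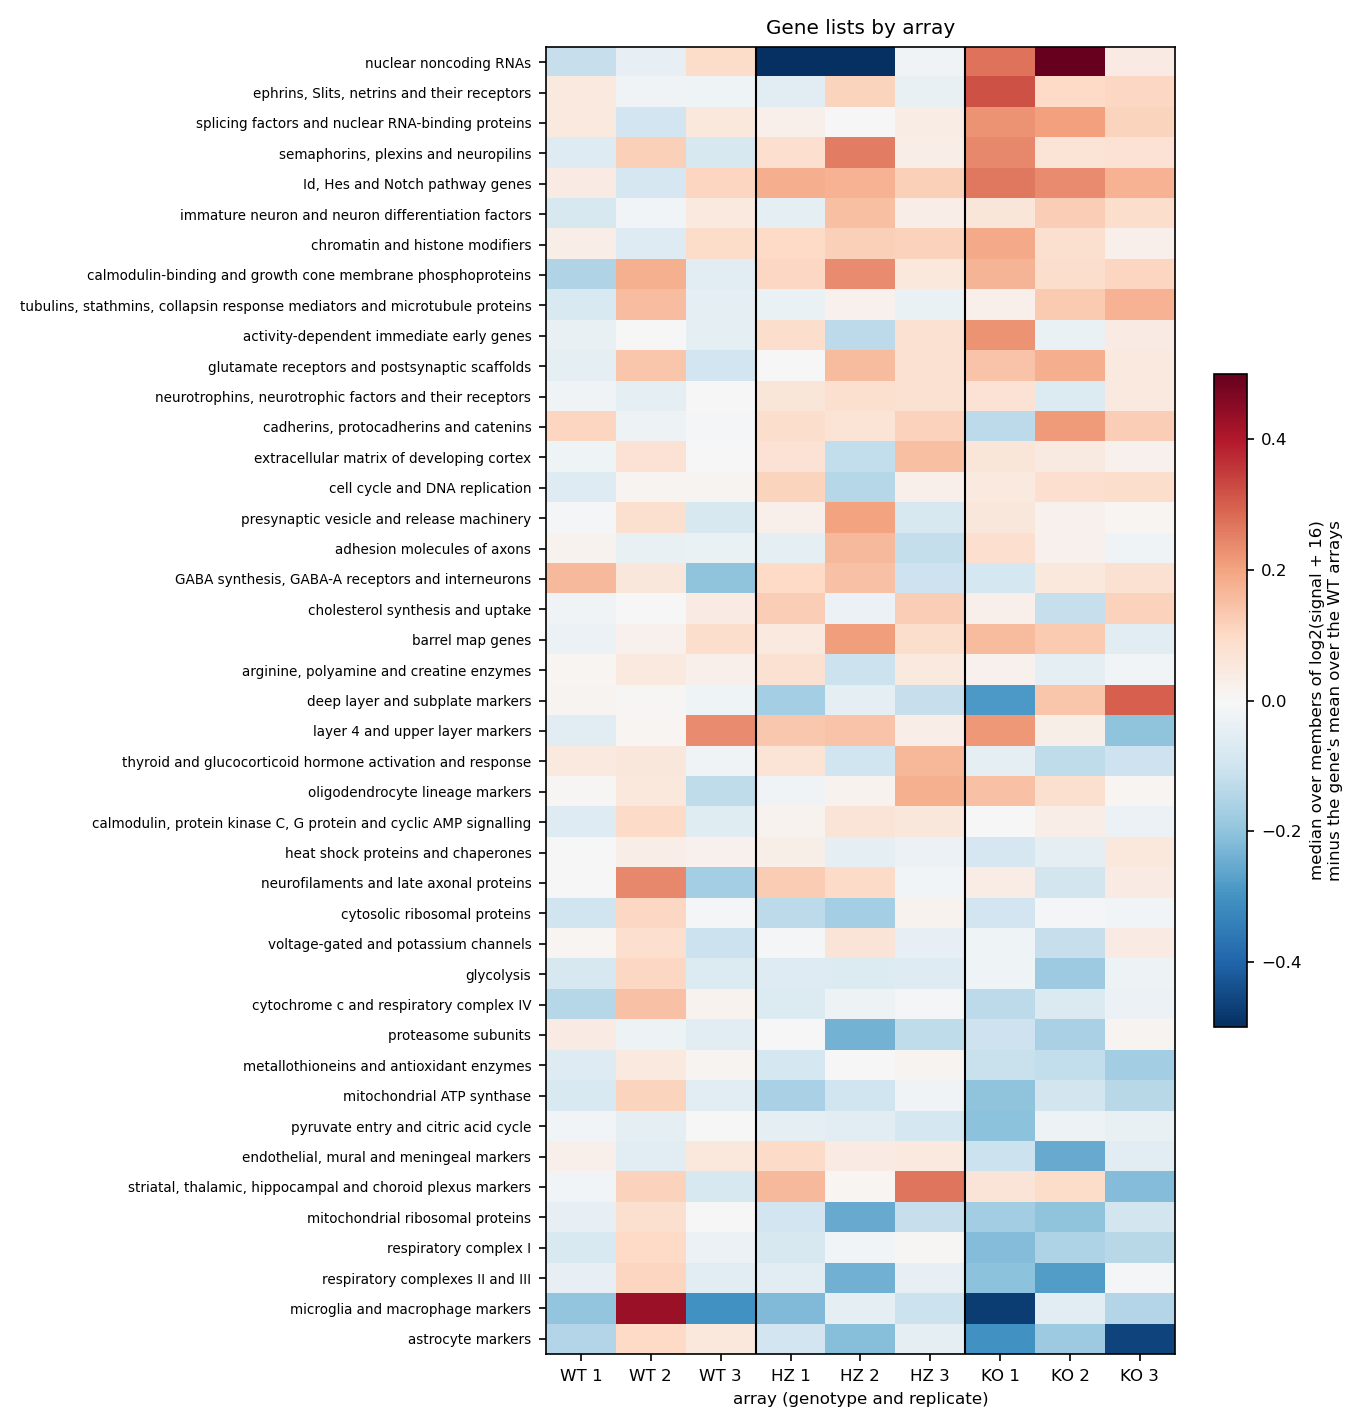
Median over the kept members of each gene list (rows) of log2(signal + 16) minus the gene's mean over the WT arrays, for each array (columns; colours end at -0.5 and 0.5). The KO columns are all blue for astrocyte markers, complex I, ATP synthase and mitochondrial ribosomal proteins and all red for splicing factors. WT 2 stands above the other WT arrays in most metabolic lists. The HZ columns are also all below 0 for astrocyte markers (-0.21 to -0.05) and ATP synthase (-0.16 to -0.02). For mitochondrial ribosomal proteins HZ (-0.25 to -0.10) is as low as KO (-0.20 to -0.09). HZ 2, which has the highest 3'/5' ratio of all arrays, is the lowest HZ array for these proteins and for astrocyte markers. For complex I (-0.08 to 0.00) and splicing factors (0.00 to 0.04) HZ is nearer to WT.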

How the data were processed

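The intensity values are the authors' deposited linear probe set signals, for which the submitters' processing notes name MAS5 and Affymetrix Expression Console; no source used here gives versions or scaling settings. From them log2(signal + 16) was computed. Of 22626 probe sets without controls, the 60% with the highest mean log2 value over all 9 arrays were kept (lowest mean signal 118). limma 3.58.1 in R 4.3.3 (lmFit on all 9 arrays, contrast KO minus WT, eBayes with an intensity trend, Benjamini-Hochberg adjustment) gave each log2 change, SE and p; the HZ arrays add to the residual spread. The code was tested on simulated data. A gene is read by its brightest kept probe set; symbols come from GEO's platform annotation (20380 probe sets with 1 symbol, 691 with several, 1555 with none), updated through RefSeq.

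Named are Gap43, the 15 genes of smallest p in each direction, the extremes of change and, in each of 44 lists, its anchor genes and up to 4 members of smallest p per direction; exceptions are marked. The members and lists were chosen with earlier results of these data known. Lists are described by counts and medians, without a test. Alternatives were filters, pseudocounts, scaling, fit settings, covariates and leaving out each array. Replicates are separate mice; 3 arrays per genotype limit the precision. Promoter letters are from the RefSeq table.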

Additional observations from a re-analysis of the deposited data

Results flagged for a closer look

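Cadherins, protocadherins and catenins differed in direction between the sexes: every female KO array had a higher median over the members than every female WT array (difference 0.13, exactly 0.1266 on the log2 scale), while the male KO array lay below the male WT array (-0.1258). Deep layer and subplate markers did the same, with a difference of 0.2079 between the females and -0.2659 between the males. The difference between the sexes was not tested, since the males are 1 array against 1, and sex was read from the arrays.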

How the results depend on the processing

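The log2 change of Gap43 was -1.95 in 3 settings that ended its call: no filter (limma adjusted p = 0.204), no intensity trend (0.0824) and only the WT and KO arrays (0.146), and leaving out 1 array gave -2.20 to -1.72. The call also ended without WT 1 (0.0696), WT 2 (0.0502), HZ 2 (0.0548) or KO 3 (0.0698). Across the 21 alternatives its limma adjusted p ran from 0.0044 to 0.204. The number of probe sets past the threshold, 1 with the settings used, was 0 in each of those 3 settings, 5 with array weights and 0 to 2 when 1 array was left out; at an unadjusted p under 0.05 it was 1634 without the filter, 1070 without the trend and 1028 with only the WT and KO arrays. With array weights Erdr1 (1.37, limma adjusted p = 0.027), Gja1 (-1.11, 0.0316) and Arg2 (0.038) passed as well, and without KO 1 so did Pom121 (-1.32, 0.0334). The count at an unadjusted p under 0.05, 1090, ran from 689 without KO 1 to 1428 without WT 2. Of 44 list medians 25 were above 0, 15 with arrays set to 1 median and 20 to 29 when 1 array was left out. Setting arrays to 1 median lowers all list medians by the same amount. With the replicate block Gap43 stood at -1.95 (limma adjusted p = 0.0489) and 987 probe sets reached an unadjusted p under 0.05; same-numbered arrays correlated at -0.26 to 0.11 over 9 pairs, so the titles' numbers were not taken to pair the mice. No leading gene changed sign in any alternative run. For most runs this was fixed in advance, since none of these genes overlapped between KO and WT. That holds for leaving out 1 array, the filters, the pseudocounts, the fit settings and, with the sexes balanced, the sex term. Only the scalings (1 median and quantile) and the 3'/5' term could have changed a sign. The cause of the shifts between settings was not tested.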
